A study of Homo sapiens with 12 samples.

Results

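The serum response of wild-type and ΔLEO1 fibroblasts was compared gene by gene as a genotype by serum interaction, the log2 change between 10% and 0.1% serum in ΔLEO1 cells less the same change in wild-type cells. A positive interaction means that the response was more positive in ΔLEO1 cells, and a negative one that it was more negative. All 12 of the 12 RNA sequencing libraries entered the comparison, and 13236 of 60671 genes were tested. The 4 groups of 3 libraries were wild-type BJ-5ta cells in 10% serum, wild-type cells after 10 days in 0.1% serum, and ΔLEO1 cells (Leo1 in the labels) in the same serum levels. BJ-5ta is a line of human skin fibroblasts immortalized with telomerase. The ΔLEO1 cells were 1 clone made with CRISPR/Cas9 guides to the start of LEO1, so that a difference between the genotypes cannot be told apart from a difference between this clone and its parent population. Neither the labels nor the methods say whether the 3 libraries of a group were separate cultures, and p-values therefore measure the spread between these libraries, which may be technical.

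LEO1 is a subunit of the PAF1 complex, which travels with RNA polymerase II and takes part in transcription elongation, RNA processing and histone modification. Normal fibroblasts deprived of serum leave the cell cycle and enter quiescence, a reversible arrest in which growth-related and contractile genes fall and many secreted and extracellular matrix genes rise. An interaction separates genes whose response to serum deprivation depended on the genotype from genes that differed by a constant amount between the genotypes at both serum levels.

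LEO1 itself was read at 23.9, 24.5 and 24.1 CPM in the wild-type libraries in 10% serum and 28.8, 29.3 and 19.9 CPM in those in 0.1% serum. In the ΔLEO1 libraries it was read at 1.4, 0.803 and 1.28 CPM in 10% serum and 0.675, 1.42 and 1.3 CPM in 0.1% serum, below each wild-type library. The gene counts per library ran from 26240632 to 45315560. Fibroblast markers summed to between 52946 and 76650 CPM in every library, whereas the endothelial, blood and melanocyte lists each summed to less than 8 CPM. The 8 epithelial and keratinocyte markers, of which KRT18 and KRT8 also occur in cultured fibroblasts, summed to 319 to 463 CPM in 10% and 167 to 182 in 0.1% serum for the wild type, and to 841 to 1141 and 510 to 585 for ΔLEO1 cells. The 6 skeletal muscle markers summed to 25.2 to 157 CPM in ΔLEO1 cells in 10% serum and to less than 12 CPM in every library of the other groups. The labels number the libraries in 1 run, 1 to 3 for wild-type and 4 to 6 for ΔLEO1 cells in 10% serum, and 7 to 9 and 10 to 12 for the same genotypes in 0.1% serum. In each group the library with the highest number stood apart from the other two, with a root mean square log2 difference from them of 0.348 to 0.431 against 0.186 to 0.272 for the other 8 libraries.

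Each gene was measured on 2 scales. On the ERCC scale, the count of a gene was divided by the counts of synthetic ERCC transcripts added to the RNA, so that a fall of all genes together remains visible. The median tested gene fell by 0.97 on the log2 scale in wild-type cells and by 1.05 in ΔLEO1 cells on this scale. Fewer cells and less RNA per cell cannot be told apart in such bulk samples. The methods give only a range for the total RNA put into a library. A difference in that amount beside the ERCC transcripts cannot be told apart from these either. On the relative scale, in which libraries were scaled by the trimmed mean of M values (TMM) of the genes themselves, the median response was near 0 in both genotypes, and a value gives the change of a gene beside the other genes. The ERCC share of a library ranged from 0.625% to 3.24%, and the 3 libraries of a group spread by a pooled SD of 0.54 on the log2 scale in their median gene. The interaction of these library medians was −0.24 with a standard error of 0.63, and an exact permutation test over 400 relabellings of genotype within serum gave p = 0.71 (two-sided). Without the highest-numbered library of each group the same quantity was −0.73. A shift of all genes together by genotype was therefore not detectable at this precision.

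On the ERCC scale, 29 of the 13236 tested genes (0.219%) passed the likelihood ratio test for the interaction, 18 with a more positive (0.136%) and 11 with a more negative response (0.0831%) in ΔLEO1 cells. The quasi-likelihood test, which allows for uncertainty in the spread of each gene, called 23 of these (0.174% of tested genes), 15 more positive (0.113%) and 8 more negative (0.0604%). On the relative scale, 540 genes (4.08%) passed, 405 more positive (3.06%) and 135 more negative (1.02%), of which the quasi-likelihood test called 265 (2%), 205 (1.55%) and 60 (0.453%). The ERCC-scale counts turned on single libraries, with 57 more positive genes without library 11 and 69 more negative genes without library 12. Without the highest-numbered library of each group, 95 genes were more negative on the ERCC scale, and 2256 were more positive and 1290 more negative on the relative scale. The share of called genes that were more positive was 62.1% on the ERCC scale and 75% on the relative scale. The median standard error of an interaction was 0.66 on the ERCC scale and 0.24 on the relative scale. Of the 29 genes, 26 were also called on the relative scale. No gene had an ERCC-scale interaction whose 95% interval lay within 1 log2 unit of 0, whereas 9501 genes (71.8%) did on the relative scale. The log2 responses of the genotypes had a Pearson correlation of 0.74 across the tested genes on the relative scale, which describes genes and not replicates. Of 2439 genes that responded in both genotypes on that scale, 2390 (98.0%) did so in the same direction.

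A called gene was put in a class by its serum response in each genotype, at an adjusted p under 0.05. The response was lost if it was called in wild-type cells only, gained if called in ΔLEO1 cells only, blunted or enhanced if called in both with the same sign and smaller or larger in ΔLEO1 cells, and reversed if called in both with opposite signs. A response that was not called is not shown to be absent. Of all tested genes, 37% responded to serum on the ERCC scale in wild-type cells (0.944% rose and 36.1% fell) and 48.2% in ΔLEO1 cells (0.975% rose and 47.2% fell), and 32.6% and 29.5% on the relative scale. By ERCC-scale calls 12 responses were lost, 6 blunted, 5 reversed, 4 gained and 2 enhanced. On the relative scale 198 were lost, 168 gained, 78 blunted, 49 reversed and 46 enhanced, and 1 gene responded in neither genotype.

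**Figure D1:**
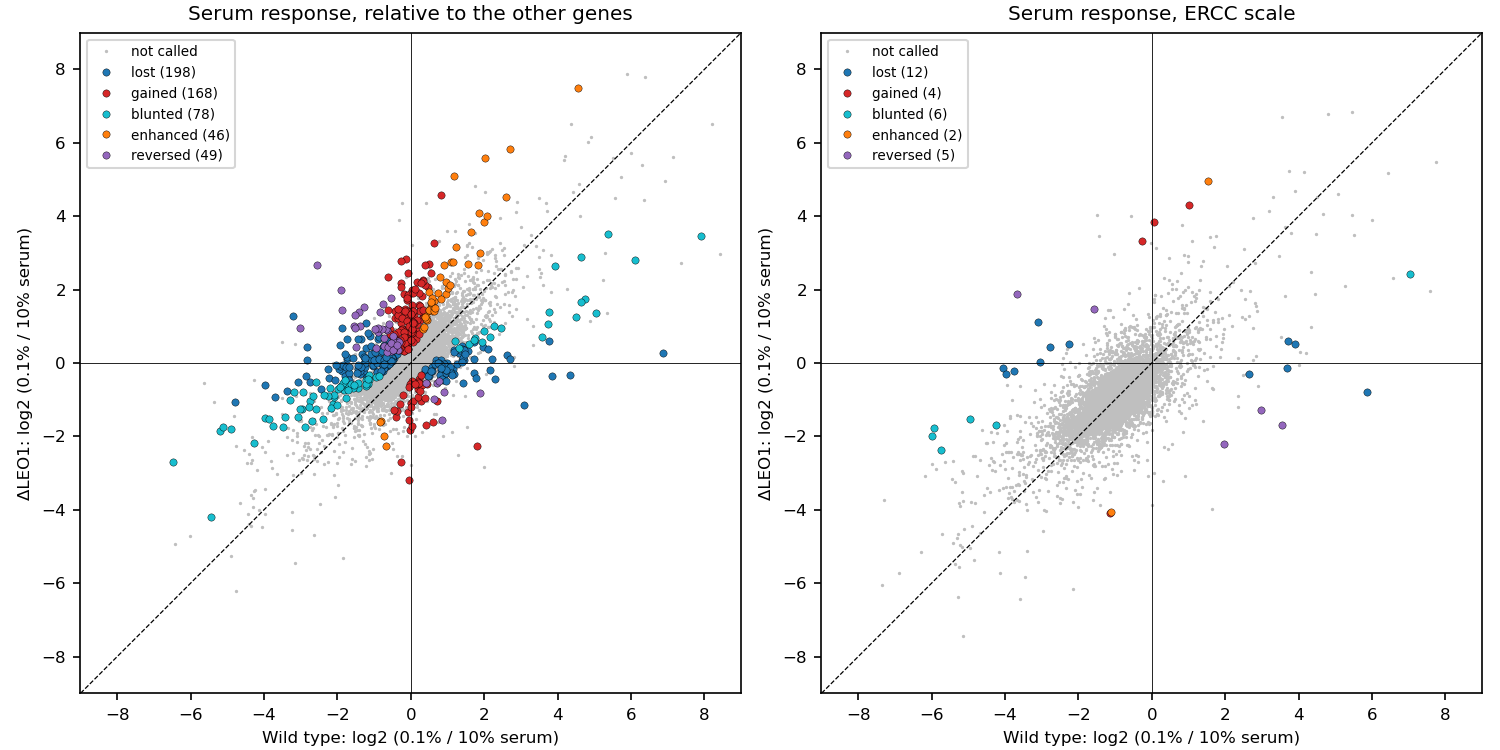
Log2 serum response (0.1% over 10% serum) of each tested gene in wild-type cells (x axis) and ΔLEO1 cells (y axis), on the relative scale (left) and the ERCC scale (right). Grey points are genes without a called interaction and coloured points the called genes by class, with their numbers; the dashed line marks equal responses. The bulk of all genes lies below 0 on both axes of the ERCC-scale panel, and the 29 called genes lie far from the line.

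Of the 29 genes on the ERCC scale, 9 were called in every fit that left out 1 of the 12 libraries. These were COL14A1, TENM4, CYP26B1 and CST1, whose wild-type rise was lost, blunted or reversed, A2M, FMO1, ASPN and CLSTN2, whose wild-type fall was blunted, lost or reversed, and COLEC12, which rose only in ΔLEO1 cells by these calls. The interaction of all 29 was between 2.55 and 6.65 log2 units in size. Other calls were less stable, and that of RELN held in 1 of the 12 fits without 1 library. The call held in 3 of these fits for CHST15, 4 for SULF1 and PDGFB, and 5 for CLDN11, OMD, DTX4 and MAP2K6. For COL21A1 and ENTPD1 it held in 3 and 4 of the 9 fits in which they were tested.

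COL14A1 (chr8:120059780-120372036, GRCh38, plus strand), which encodes a collagen that binds to the surface of collagen fibrils, had the largest interaction. Its ERCC-scaled counts, that is counts relative to a fixed number of effective ERCC counts, were 72.6, 80.4 and 21.3 for wild-type cells grown in 10% serum and 4092, 3805 and 2061 for those in 0.1% serum. In ΔLEO1 cells they were 8649, 6604 and 13216 in 10% serum and 6091, 3127 and 7303 in 0.1% serum. The wild-type cells in 10% serum stood alone at the low end, and each ΔLEO1 library in 10% serum lay above each wild-type library in 0.1% serum. COL14A1 rose by 5.87 log2 units in wild-type cells and had a response of −0.79 in ΔLEO1 cells that was not called, an interaction of −6.65 ± 0.66 (SE; adjusted p = 1.94e-16). The value ranged from −6.99 to −6.22 when each library was left out.

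CYP26B1 (chr2:72129238-72148038, minus strand), an enzyme that breaks down retinoic acid, was also lowest in wild-type cells in 10% serum. Wild-type cells had 10.4, 21.5 and 10.6 ERCC-scaled counts in 10% serum, and the gene rose to 111, 161 and 70.1 in 0.1% serum. In ΔLEO1 cells it was at 257, 201 and 216 in 10% serum and fell to 83.3, 25.8 and 175 in 0.1% serum, where its spread was wide. On the relative scale its response in ΔLEO1 cells was −0.37 and not called. The high level in 10% serum in ΔLEO1 cells lay above each wild-type library, and the interaction was −4.26 ± 0.82 (adjusted p = 0.000355). CST1 (chr20:23747553-23751268, minus strand), a secreted inhibitor of cysteine proteases, was at 48.4, 37.5 and 30.1 in wild-type cells in 10% serum and 484, 832 and 171 in 0.1% serum, against 852, 594 and 249 and 612, 424 and 517 in ΔLEO1 cells. Only the first of these groups was separate from the others, and the interaction was −3.81 ± 0.74 (adjusted p = 0.000489). Of the 58-base stretches of the CST1 transcripts, 18.8% also occur in transcripts of other genes, most in CST4, so reads of the cystatins may be shared.

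TENM4 (chr11:78652831-79440948, minus strand), a transmembrane teneurin of cell contacts, rose in both genotypes and less in ΔLEO1 cells. It had only 3, 2 and 0 reads in the wild-type libraries in 10% serum, and 562, 367 and 173 reads in 0.1% serum. Summed over the group, its ERCC-scaled level rose 132-fold in wild-type cells, with a counting interval from 56.3 to 406. In ΔLEO1 cells it was at 24.5, 38.6 and 16.6 ERCC-scaled counts in 10% serum and 129, 74.6 and 234 in 0.1% serum, against 782, 844 and 193 in wild-type cells in 0.1% serum. The ΔLEO1 libraries lay above the wild-type ones in 10% serum, and in 0.1% serum only library 12 reached above a wild-type library, the lowest of the 3. The fitted interaction was −4.61 ± 0.99 (adjusted p = 0.00109), a size that depends on a group with 3 reads or fewer in each library.

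Another 7 genes had a more negative response in ΔLEO1 cells. HPSE2, a heparanase relative that binds heparan sulfate without cleaving it, rose in wild-type cells from 356, 450.5 and 301 ERCC-scaled counts to 4580.2, 6094 and 3856. In ΔLEO1 cells it stayed within 347, 306 and 496 in 10% serum and 575, 344 and 812 in 0.1% serum, where its response of 0.59 was not called (interaction −3.13 ± 0.67, adjusted p = 0.00429). On the relative scale its response in ΔLEO1 cells was 1.66 and called, a blunted rise. On the ERCC scale the wild-type libraries in 0.1% serum stood alone at the high end. ENTPD1, which hydrolyses extracellular ATP, had the same order, with 733, 906 and 138 in wild-type cells in 0.1% serum and no more than 51.9 in any library of the other groups (interaction −3.40). It was not called by the quasi-likelihood test (adjusted p = 0.0682). ENTPD1 passed the filter on low counts only through the wild-type libraries in 0.1% serum, the group in which it was high.

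CLDN11, a tight junction protein, was lowest in wild-type cells in 10% serum (228, 153 and 47.8 ERCC-scaled counts) and was at 780.3, 968 and 887 in 0.1% serum, while ΔLEO1 cells had 2345, 1849 and 866 in 10% serum and 925, 411 and 2804 in 0.1% serum. Its interaction was −2.93 ± 0.69 (adjusted p = 0.0183), and 16.8% of its 58-base stretches also occur in another annotated transcript, AC026316.5. FPR3, a formyl peptide receptor, was at 0, 1 and 0 reads in wild-type cells in 10% serum and 17, 5 and 2 in 0.1% serum, a ratio of 14.3 on the ERCC scale with a counting interval from 2.34 to 590. In ΔLEO1 cells it fell on the ERCC scale, from 57, 68 and 42 reads to 36, 53 and 21, and its interaction was −5.24 ± 1.65. The ΔLEO1 groups of FPR3 overlapped on the relative scale, and its wild-type groups overlapped on the ERCC scale. Without library 7 the FPR3 interaction was −4.22 and no longer called (adjusted p = 0.715).

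COL21A1, another fibril-associated collagen, rose in wild-type cells (118, 93.8 and 23 to 269.8, 317 and 318 ERCC-scaled counts) and fell in ΔLEO1 cells, where 4, 1 and 6 reads in 10% serum compare with 1, 0 and 3 in 0.1% serum, a fall of 5.56-fold with a counting interval from 1.65 to 24.0. On the relative scale its response in ΔLEO1 cells was −1.14 and not called. The pass of COL21A1 through the filter on low counts rested on the wild-type libraries in 0.1% serum, where it was highest. SCUBE3, a secreted cell-surface glycoprotein, fell in both genotypes on the ERCC scale, and more in ΔLEO1 cells. It went from 5162, 4969 and 3967 to 2537, 3200.1 and 784 in wild-type cells and from 8152, 6164 and 3712 to 448, 298 and 344 in ΔLEO1 cells (interaction −2.93 ± 0.65, adjusted p = 0.00659). On the relative scale its wild-type response was −0.27 and not called. The ΔLEO1 libraries in 0.1% serum were the lowest 3 of the 12, and the SCUBE3 call held in 8 of the 12 fits without 1 library. It was lost without library 2, 4, 7 or 8, with interactions from −2.97 to −2.54. RELN, which encodes the secreted glycoprotein reelin, fell only in ΔLEO1 cells by the calls, to 21.2, 1.84 and 41.1 ERCC-scaled counts, and its interaction of −2.96 was the one nearest to the threshold (adjusted p = 0.0453, and 0.089 with the quasi-likelihood test, as against 0.075 for COL21A1).

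Among the genes with a more positive response, A2M (chr12:9067664-9116229, minus strand), a secreted protease inhibitor that traps proteases of all classes, had the highest levels of the 9 that held without any library. It fell from 60297, 52476 and 22368 ERCC-scaled counts to 1636, 2016 and 746 in wild-type cells, and from 7891, 6005 and 8208 to 1987, 1103 and 4536 in ΔLEO1 cells. ΔLEO1 cells were below wild-type cells in 10% serum in each library, and the response was −4.94 log2 units in wild-type and −1.54 in ΔLEO1 cells (interaction 3.41 ± 0.63, adjusted p = 0.000264). SULF1, an enzyme that removes sulfate from heparan sulfate outside the cell, was far more abundant. It fell from 685568, 526447 and 253394 to 25695, 28320.4 and 23151 in wild-type cells and from 223329, 167821 and 147457 to 35327, 20216 and 110939 in ΔLEO1 cells. The SULF1 interaction of 2.55 ± 0.62 (adjusted p = 0.0249) was called in 4 of the 12 fits without 1 library, with values from 1.55 to 2.95.

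FMO1 (chr1:171248471-171285978, plus strand), a flavin-containing monooxygenase, fell in wild-type cells from 812, 654 and 369 to 32, 80.5 and 2.23 ERCC-scaled counts. In ΔLEO1 cells it was at 999, 473 and 329.9 and 837, 418 and 367, and these 2 groups overlapped each other and the wild-type cells in 10% serum. The response was −4.06 in wild-type and −0.15 in ΔLEO1 cells, an interaction of 3.92 ± 0.72 (adjusted p = 0.000264). KRT4, a keratin, fell to 6.95, 4.6 and 24.5 from 930.0, 938 and 528 in wild-type cells, and to 127, 77.3 and 933 from 1737, 1067 and 1025 in ΔLEO1 cells. The last of these values, from library 12, decided the call, since the interaction was 4.16 with it and 2.26 without it (adjusted p = 0.0572).

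ASPN and OMD encode asporin and osteomodulin, small leucine-rich proteoglycans of the matrix, and lie 31743 bases apart on the minus strand of chromosome 9. ASPN (chr9:92456205-92482506) fell from 2531, 2121 and 524 to 166, 156 and 276 ERCC-scaled counts in wild-type cells and was at 363, 190.3 and 145 and 249.9, 158 and 1120.4 in ΔLEO1 cells (interaction 4.24 ± 0.70, adjusted p = 2.78e-05). OMD rose in both genotypes, from 138, 150.2 and 17.7 to 195, 292 and 385 in wild-type cells and from 28.5, 7.71 and 7.12 to 245, 147 and 876 in ΔLEO1 cells (interaction 3.44 ± 0.83, adjusted p = 0.0187). Both genes overlap CENPP on the other strand. The pair thus moved in opposite directions in wild-type cells and had interactions of the same sign, and in 10% serum each ΔLEO1 library was below each wild-type one for ASPN, as for OMD except that library 4 exceeded library 3.

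COLEC12, a scavenger receptor with a collagen-like stalk, LRRC15, a leucine-rich repeat membrane protein, and SHISAL1 were lowest in ΔLEO1 cells in 10% serum. COLEC12 (chr18:316740-500722, minus strand) had 12214, 9667 and 1830.2 ERCC-scaled counts in the wild-type libraries in 10% serum and 7527, 9812 and 7176 in those in 0.1% serum, and rose in ΔLEO1 cells from 294, 177 and 97.3 to 2782, 1794 and 3531. Each ΔLEO1 library in 10% serum was below each library of the other 3 groups, and the interaction was 3.80 ± 0.65 (adjusted p = 3.5e-05). LRRC15 went from 3067, 2515 and 276 to 1629, 2221 and 1014 in wild-type cells and from 147, 97.7 and 11.9 to 957, 505 and 1074 in ΔLEO1 cells (interaction 3.60). SHISAL1 rose in ΔLEO1 cells from 24.5, 28.3 and 16.6 to 509, 390.4 and 486 against 1120.1, 847 and 291 and 1765, 2094 and 683 in wild-type cells (interaction 3.30). CLSTN2, a calsyntenin of the cell surface, fell from 764, 694 and 103 to 48.7, 46 and 27.8 in wild-type cells and went from 20.4, 10.3 and 4.75 to 21.2, 8.29 and 103 in ΔLEO1 cells, on 5, 4 and 2 reads in 10% serum, an interaction of 5.56 ± 0.87. Adjusted p-values were 0.000469 for LRRC15, 0.0093 for SHISAL1 and 1.3e-06 for CLSTN2. The ΔLEO1 groups of CLSTN2 overlapped on the ERCC scale, and only library 12, at 103, stood clearly above the ΔLEO1 libraries in 10% serum.

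**Figure D2:**
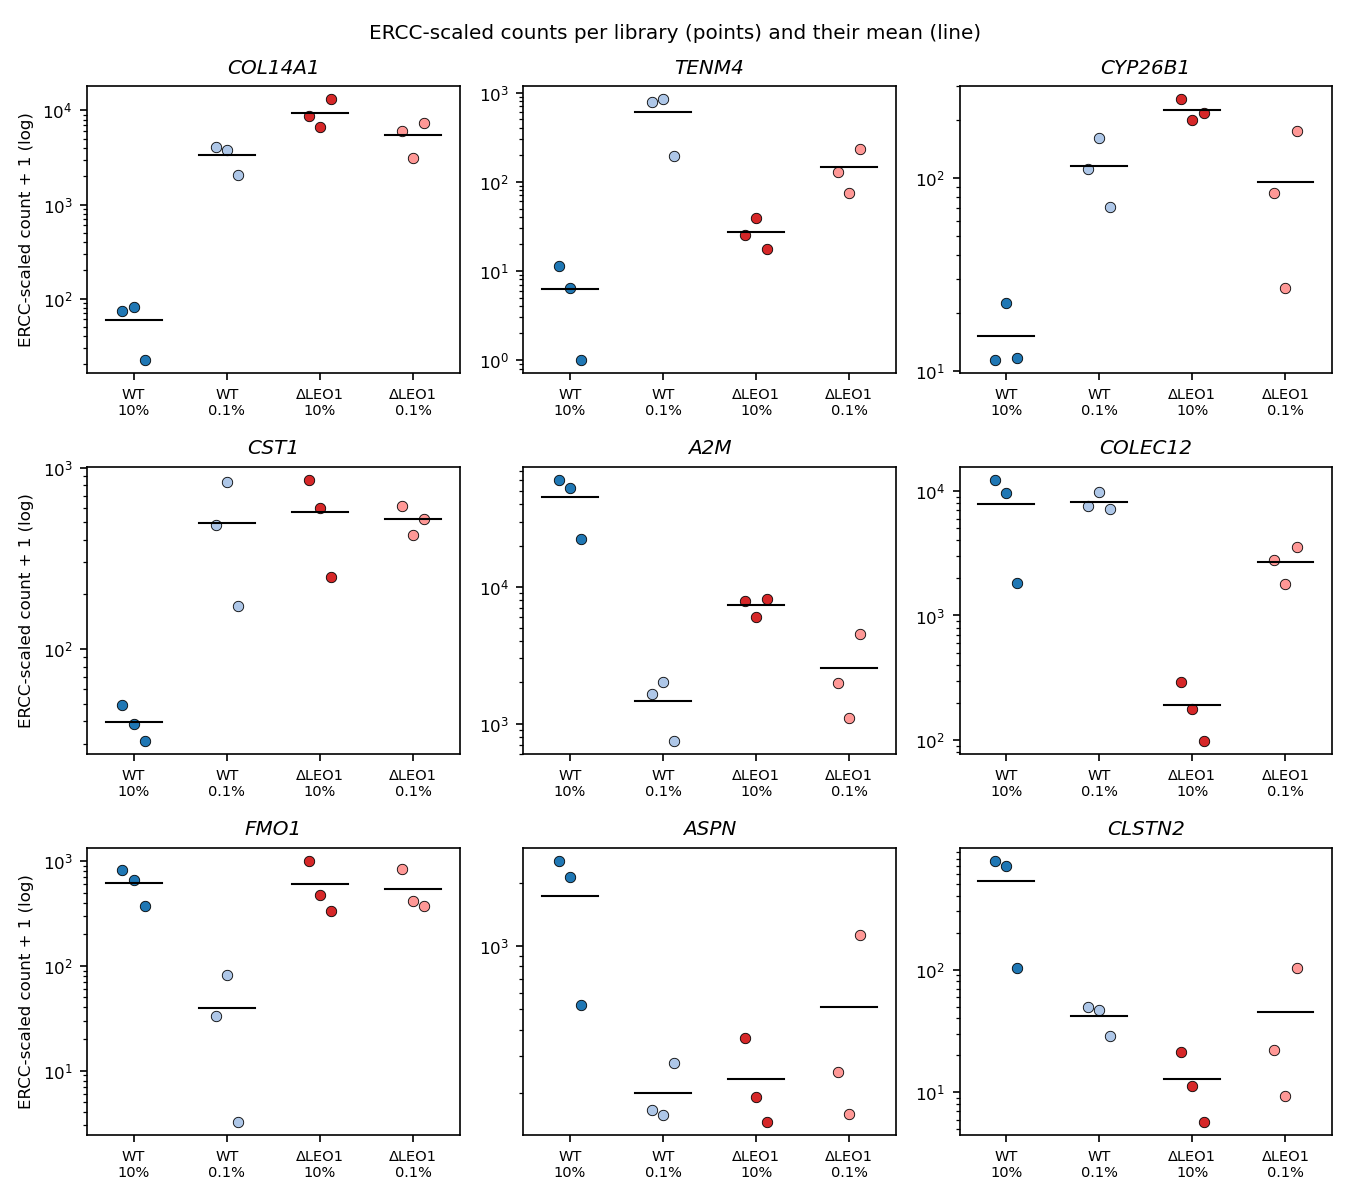
ERCC-scaled counts plus 1 (log axis) of the 9 genes that were called on the ERCC scale in all 12 fits without 1 library, in the 3 libraries of each group (points) with their mean (line). COL14A1, CYP26B1 and CST1 are lowest in wild-type cells in 10% serum, COLEC12 is lowest in ΔLEO1 cells in 10% serum, and FMO1 is lowest in wild-type cells in 0.1% serum.

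FRAS1, a basement membrane protein, fell from 2842, 2478 and 928 ERCC-scaled counts to 121, 106 and 168 in wild-type cells and was at 534, 460.3 and 242 and 117, 78.3 and 819.8 in ΔLEO1 cells. Its interaction was 3.68 ± 0.70, and 1.89 without library 12 (adjusted p = 0.133). CPA4, a carboxypeptidase, fell from 5680.2, 5041 and 3336 to 298, 361 and 1055 in wild-type cells and was at 4216, 2739 and 1194 and 1831, 907 and 5525 in ΔLEO1 cells (interaction 3.05, adjusted p = 0.00382). Both wild-type falls had no overlap between serum levels, and both ΔLEO1 responses were not called.

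DTX4, a deltex ubiquitin ligase of the Notch pathway, went from 1542, 1502 and 1113 to 227, 255 and 125 ERCC-scaled counts in wild-type cells and was at 65.2, 38.6 and 19 and 40.9, 19.3 and 108 in ΔLEO1 cells (interaction 3.22, adjusted p = 0.0183). CHST15, which adds sulfate to chondroitin sulfate, fell in wild-type cells from 1673, 1399.7 and 1263 to 473, 556 and 439.7 and rose in ΔLEO1 cells from 32.6, 66.9 and 49.8 to 74.2, 70 and 283, all below the wild-type libraries (interaction 3.03, adjusted p = 0.0249, and 0.0516 with the quasi-likelihood test). On the relative scale its wild-type response was −0.61 and not called. Without library 12 the CHST15 interaction on the ERCC scale was 2.07 and not called (adjusted p = 0.105, likelihood ratio test). PDGFB, a ligand of the PDGF receptors on fibroblasts, fell from 9, 18 and 34 reads to 1, 5 and 0 in wild-type cells and was at 81, 98 and 131 and 160, 200 and 132 reads in ΔLEO1 cells (interaction 3.53, adjusted p = 0.0376). Without library 9 it was 2.78 and not called, and the quasi-likelihood test did not call it (adjusted p = 0.0777).

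For 3 genes, which were called on the ERCC scale and not on the relative scale, a single library decided the value. CXCL8 and IL6, inflammatory cytokines of stressed fibroblasts, had 177, 194 and 9244 and 97, 149 and 4517 reads in wild-type cells in 10% serum, so that library 3 stood far above its mates. Their interactions of 4.02 and 3.38 became 0.65 and 0.40 without library 3, neither called. MAP2K6, a kinase that activates p38, was at 273, 156 and 2488 ERCC-scaled counts in ΔLEO1 cells in 0.1% serum, and its interaction of 2.79 became 0.61 without library 12. With the highest-numbered library of each group as a covariate, the calls of IL6, MAP2K6, SCUBE3 (adjusted p = 0.0566), RELN, CHST15, COL21A1, ENTPD1, PDGFB and SULF1 were lost, and 20 of the 29 remained. The ERCC share of library 12 was 1.09% against 1.88% and 3.24% in libraries 10 and 11, and the part of this share in these values was not tested.

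**Figure D3:**
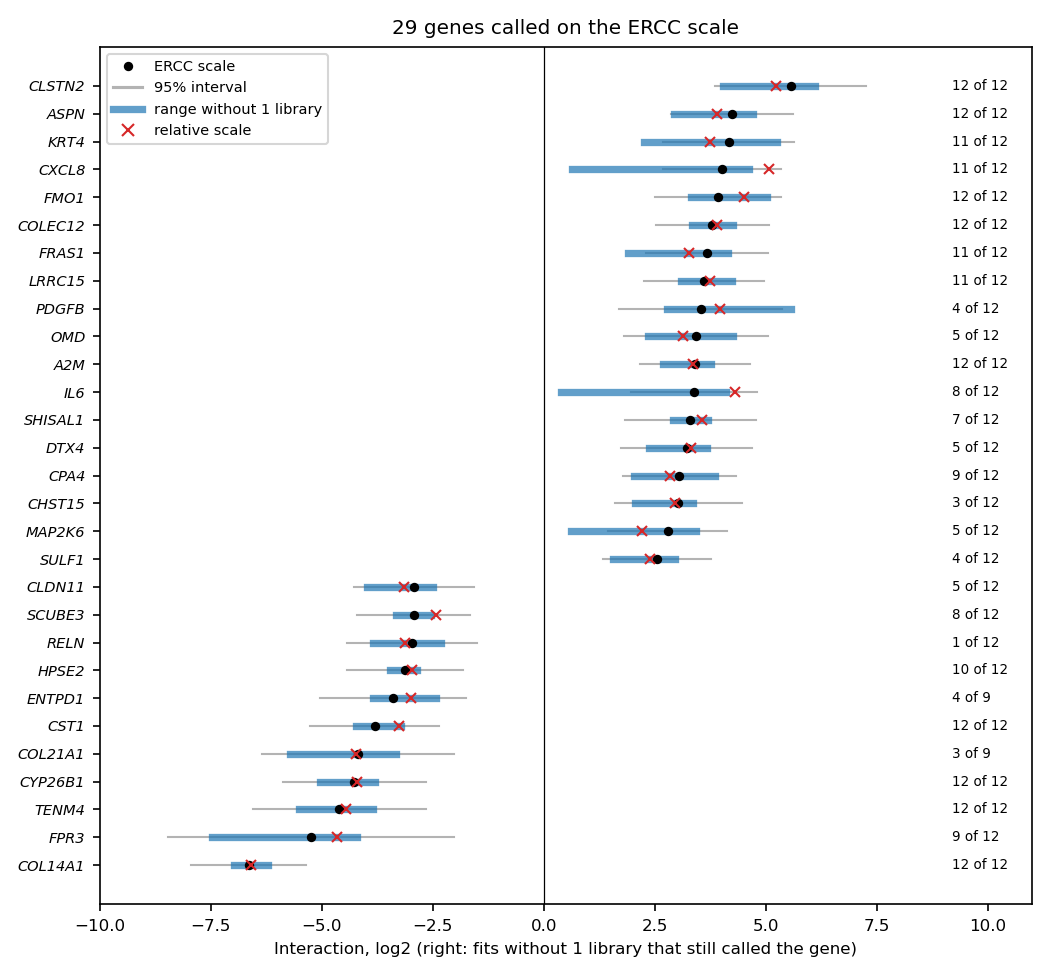
Interaction (log2) of the 29 genes called on the ERCC scale, with its 95% interval (grey), the range over fits that left out 1 library (blue) and the value on the relative scale (red cross). The numbers at the right count the fits without 1 library in which the gene was still called; COL21A1 and ENTPD1 passed the filter on low counts in only 9 of the 12. COL14A1 is farthest from 0, and CXCL8, IL6 and MAP2K6 reach close to 0.

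On the relative scale the classes could be described in numbers. Of the 198 lost responses, 131 were falls of wild-type cells that were not called in ΔLEO1 cells, with a median of −0.91 in wild-type and 0.10 in ΔLEO1 cells, and 67 were rises (1.16 and −0.11). Of the 168 gained responses, 133 were rises of ΔLEO1 cells, with a median of −0.10 in wild-type and 1.11 in ΔLEO1 cells, and 35 were falls. Of 49 reversed responses, 42 were a fall in wild-type and a rise in ΔLEO1 cells. Blunted responses were falls in 56 of 78 genes, and enhanced responses were rises in 42 of 46. In 371 of the 540 genes (68.7%) the genotypes were further apart in 10% than in 0.1% serum, as against 57.7% of all tested genes. In the blunted class, by contrast, this held for only 6 of 22 rises and 20 of 56 falls. Of the 540 genes, 267 were called in every fit without 1 library, among them 46 of the 49 reversed and 80 of the 198 lost genes.

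Among reversed genes, FZD4 (chr11:86945679-86955391, minus strand), a receptor for Wnt proteins and norrin, fell from 51, 54.9 and 60.6 to 31, 28.9 and 26 CPM in wild-type cells and rose from 78.1, 76.1 and 65.8 to 99.4, 90.7 and 104 CPM in ΔLEO1 cells. No library of one group lay within the range of another, and the interaction on the relative scale was 1.37 ± 0.18 (adjusted p = 9.76e-12). TNFAIP8, an inhibitor of cell death, was at 20.9, 21.7 and 52.7 and 18.9, 21.2 and 16.5 CPM in wild-type cells and rose from 4.64, 4.98 and 4.92 to 14.6, 14.1 and 15.3 CPM in ΔLEO1 cells (2.35). Its wild-type groups overlapped, and only library 3, at 52.7 CPM, stood clearly above the wild-type libraries in 0.1% serum. GASK1B, a Golgi-associated kinase-like protein, fell from 20.9, 20.8 and 14.5 to 9.42, 7.03 and 6.65 CPM in wild-type cells, while in ΔLEO1 cells it had a summed 8 reads in 10% serum and 20 in 0.1% serum, a 3.0003-fold rise with a counting interval from 1.27 to 7.88. Myosin heavy chain MYH10 (interaction 0.86), the semaphorin receptor PLXNB1 (0.84) and the seven-pass cadherin CELSR1 (1.43) also fell in wild-type and rose in ΔLEO1 cells.

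The opposite reversal, a rise in wild-type and a fall in ΔLEO1 cells, was seen in 7 genes. BMP4, a bone morphogenetic protein, went from 19.8, 18.9 and 16.1 to 33.5, 34.7 and 35.4 CPM in wild-type cells and from 56.9, 54.3 and 72.3 to 30.9, 26.8 and 48.3 CPM in ΔLEO1 cells (interaction −1.71 ± 0.29, adjusted p = 1.46e-06). The ΔLEO1 libraries in 10% serum were the highest of the 12, and those in 0.1% serum overlapped the wild-type ones. NAALAD2, a peptidase (−2.69), the neuronal kinesin KIF5C (−2.40) and the clock repressor NR1D1 (−0.96) shared this direction.

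Members of the BMP and TGF-beta pathway were called on either side. Of 45 tested members, 3 were more positive and 2 more negative in ΔLEO1 cells, beside 3.06% and 1.02% of all tested genes in these directions. NOG, which encodes the BMP antagonist noggin, fell from 3.31, 2.94 and 3.46 to 1.38, 1.39 and 0.613 CPM in wild-type cells and was at 1.69, 1.45 and 0.792 and 2.52, 3.54 and 1.57 CPM in ΔLEO1 cells, where it rose (interaction 2.48, adjusted p = 0.000354). INHBB, the beta-B subunit of activins and inhibins, fell in wild-type cells from 29, 28.8 and 19.5 to 17.1, 17.5 and 19.1 CPM and rose in ΔLEO1 cells from 0.263, 0.424 and 0.14 to 0.998, 0.938 and 0.931 CPM (interaction 2.30). The ligands BMP2 and BMP4 had interactions of the other sign. BMP2 rose in wild-type cells from 0.253, 0.708 and 0.844 to 2.48, 2.27 and 4.23 CPM and was at 0.474, 0.759 and 0.559 and 0.352, 0.545 and 0.426 CPM in ΔLEO1 cells (interaction −2.75, adjusted p = 0.000261). BMP2 exceeded 1 CPM only in the wild-type libraries in 0.1% serum, so its pass of the filter on low counts rested on that group. It was tested in 9 of the 12 fits without 1 library and called in these 9. The median interaction of the 45 was 0.11, as against 0.02 over all tested genes.

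The list with the most called members was that of glycolysis and hypoxia genes, in which 13 of 35 tested members were more positive in ΔLEO1 cells and none more negative, beside 3.06% of all tested genes called in this direction. The quasi-likelihood test called 4 of the 13 (NDRG1, HK2, PFKFB3 and CA12). Of the 35 members, 25 fell in wild-type cells and 17 in ΔLEO1 cells on the relative scale, with a median response of −1.04 and −0.47. Of all tested genes, 16.6% fell in wild-type and 12.9% in ΔLEO1 cells on this scale. The interaction was positive in 33 of the 35, with a median of 0.64. No member was called on the ERCC scale, and the median responses were −1.94 and −1.65.

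Glycolysis splits glucose into pyruvate in the cytosol, and its enzymes are among the best known targets of the hypoxia-inducible factors. HK2, a hexokinase that makes the first step, fell from 60.5, 58.3 and 97.1 to 10.8, 10.1 and 14.9 CPM in wild-type cells and from 89.7, 93.8 and 76 to 38.4, 32.5 and 37.9 CPM in ΔLEO1 cells. The ΔLEO1 libraries in 0.1% serum were all above the wild-type ones, and the interaction was 1.34 ± 0.30 (adjusted p = 0.000753). PGK1, which makes the first ATP of the pathway, fell from 616, 611 and 819 to 237, 226 and 157 CPM in wild-type cells and from 481, 483 and 423 to 324, 283 and 221 CPM in ΔLEO1 cells (interaction 0.98 ± 0.28, adjusted p = 0.0152). GAPDH, the enzyme before it, was at 4277, 4300.4 and 4969 and 1917, 2119.6 and 1945 CPM in wild-type cells and 4902, 4769.5 and 4238 and 4312, 3729 and 2619 CPM in ΔLEO1 cells (interaction 0.80 ± 0.24, adjusted p = 0.0287).

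For HK2 and GAPDH the genotypes overlapped in 10% serum and were apart in 0.1% serum, whereas for PGK1 the ΔLEO1 libraries were lower in 10% serum and the genotypes came close in 0.1% serum without separating. HK1, GPI and PFKL, further enzymes of the upper pathway, had interactions of 0.64, 0.73 and 0.85. PFKFB3 and PFKFB4, which set the level of an activator of phosphofructokinase, had 1.02 and 1.35, and PFKFB3 rose in ΔLEO1 cells only by the calls, from 69, 68.5 and 57.6 to 161, 138 and 206 CPM. Enzymes of the pathway that did not pass included TPI1 (0.83, adjusted p = 0.0682), ENO1 (0.70, 0.0851), LDHA (0.84, 0.132) and PKM (0.48, 0.26), while ENO2 (0.64), PGAM1 (0.48) and ALDOA (0.44) did not pass either, and PFKP, ALDOC and PFKM had 0.08, 0.08 and −0.16.

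CA12, a membrane carbonic anhydrase, had the largest interaction of the list. It was at 6.74, 7.13 and 9.29 and 4.55, 4.54 and 6.01 CPM in wild-type cells and rose from 0.263, 0.357 and 0.28 to 1.09, 0.968 and 0.426 CPM in ΔLEO1 cells (interaction 2.05 ± 0.45), below the wild-type cells throughout. NDRG1, a stress-responsive protein, rose in both genotypes, from 171, 176 and 192 to 392, 383 and 282 CPM in wild-type and from 106, 91.3 and 104 to 512, 457 and 412 CPM in ΔLEO1 cells (interaction 1.22 ± 0.21, adjusted p = 2.04e-06). BNIP3, a mitophagy receptor, fell from 169, 166 and 184 to 51.5, 50.8 and 35 CPM in wild-type cells and from 164, 169 and 113 to 116, 107 and 59 CPM in ΔLEO1 cells (interaction 1.26). HK1, HK2, GPI, PGK1 and BNIP3 thus fell less in ΔLEO1 cells, the falls of PFKL, PFKFB4 and GAPDH were called in wild-type cells only, and MXI1 (0.79), like PFKFB3 and CA12, rose in ΔLEO1 cells only by the calls.

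EPAS1, the HIF-2 alpha subunit, fell in wild-type cells and rose in ΔLEO1 cells by the calls, with an interaction of 1.01. Both responses were near the threshold (adjusted p = 0.047 and 0.037, likelihood ratio test), and the ΔLEO1 groups overlapped. The EPAS1 interaction was called in 6 of the 12 fits without 1 library, and not by the quasi-likelihood test (adjusted p = 0.0928). HIF1A itself had an interaction of 0.08 (95% interval −0.32 to 0.47). The 2 negative values were those of ANKRD37 (−1.57, adjusted p = 0.173) and PFKM. Leaving out library 10 gave the largest adjusted p for 8 of the 13 called members, and the calls of HK1, GPI and GAPDH held in only 1, 1 and 2 of the 12 fits without 1 library, whereas those of HK2, NDRG1, PFKFB3 and CA12 held in all 12. Between 2.44% and 8.16% of the 58-base stretches of PGK1, GAPDH, GPI, HK2 and BNIP3 also occur in transcripts of other genes, such as the pseudogenes HK2P1 and BNIP3P1, so their counts may include reads of these.

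**Figure D4:**
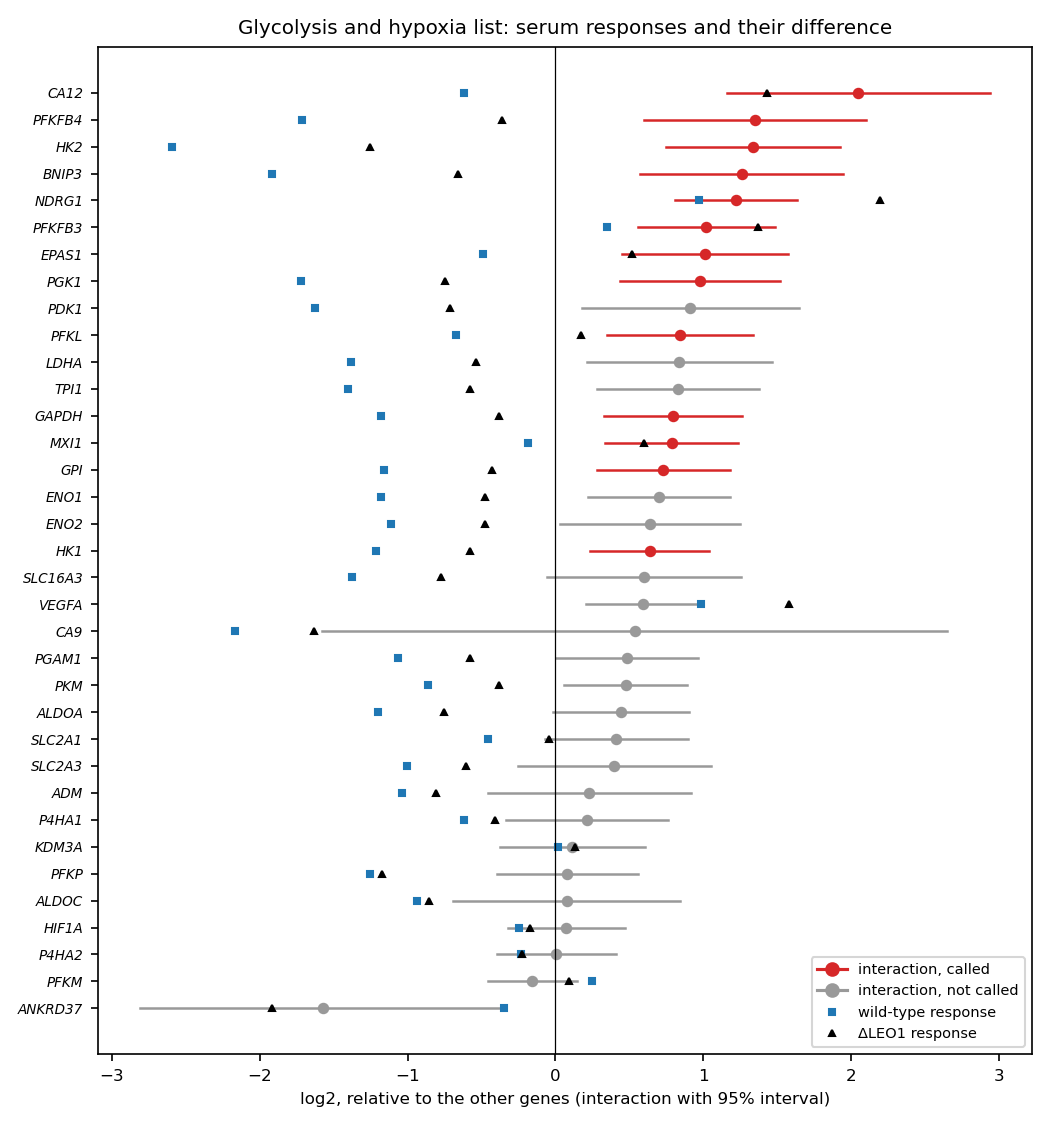
Serum responses on the relative scale (log2, x axis) of the 35 tested genes of the glycolysis and hypoxia list in wild-type cells (blue squares) and ΔLEO1 cells (black triangles), with the interaction and its 95% interval (circles and lines, red where called). The interaction is above 0 for 33 of the 35 genes and called for 13.

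The promoters of these genes (250 bases before to 50 after the gene start, RefSeq, GRCh38.p14) were searched on both strands for ACGTG. These letters are a form of the core of the hypoxia response element and also lie within the E-box CACGTG. The form GCGTG was not searched, so the shares below do not cover all hypoxia response cores. Of the 13 called members, 12 had a promoter in the table and 5 of these held ACGTG (41.7%), as against 12 of 32 tested members of the list (37.5%), 26.9% of the promoters of all tested genes and 21.6% of the 27305 promoters in the table. The stretches of 30 bases around the match are shown 5′ to 3′ on the strand of the gene, for the 5 called genes with a match, of which HK2 holds 1 more match before and PGK1 1 more after the start, with the match in capitals (ACGTG, or CACGT where the match is on the other strand).
PGK1, chrX:78104034-78104063, plus strand, match 202 bases before the start: gcggcgtgccggACGTGacaaacggaagcc
PGK1, chrX:78104053-78104082, plus strand, match 183 bases before the start: aaacggaagccgCACGTctcactagtaccc
GPI, chr19:34364818-34364847, plus strand, match 162 bases before the start: acactgcctgtaACGTGgaaggtgttcgat
BNIP3, chr10:131982039-131982068, minus strand, match 133 bases before the start: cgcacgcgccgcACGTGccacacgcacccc
GAPDH, chr12:6535172-6535201, plus strand, match 80 bases before the start: ctctgcggggtcACGTGtcgcagaggagcc
HK2, chr2:74834067-74834096, plus strand, match 48 bases before the start: aatgggcgtgcgCACGTcactgatccggag
The match in BNIP3 and that in GAPDH are part of a full CACGTG. Only the first start that the table lists for a gene was searched, and other listed starts of HK2, PFKFB3 and MXI1 hold the letters too. A match is a description of the letters and not of a bound site. Over all promoters of genes called on the relative scale, ACGTG was found in 24.3% of those with a more positive and 25.7% of those with a more negative response.

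Extracellular matrix genes were called in both directions. Of 45 tested matrix glycoproteins and proteoglycans, 8 were more positive and 3 more negative in ΔLEO1 cells, and of 23 collagens 2 were more positive and 4 more negative, beside 3.06% and 1.02% of all tested genes. The quasi-likelihood test called 6 and 1 of the first list and 0 and 1 of the collagens. SVEP1, a large adhesion protein of the matrix, was at 204, 214 and 237 and 260.3, 191 and 173 CPM in wild-type cells and rose from 20.6, 19.9 and 17.6 to 73.9, 77.1 and 58.9 CPM in ΔLEO1 cells (interaction 1.92 ± 0.24, adjusted p = 1.4e-12). The thrombospondin THBS2 fell in wild-type cells, from 1687, 1606 and 1156 to 632, 588 and 482 CPM, and was at 608, 579.9 and 707 and 507, 461 and 665 CPM in ΔLEO1 cells (interaction 1.17). EFEMP1, a fibulin (1.31), and the microfibril protein MFAP5 (1.67) lost a fall in the same way, from lower levels in ΔLEO1 cells. MFAP5 was at 50.3, 50.6 and 35.5 CPM in wild-type and 1.9, 1.32 and 2.03 CPM in ΔLEO1 cells in 10% serum.

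DPT, which encodes the matrix protein dermatopontin, rose in both genotypes and less in ΔLEO1 cells. It went from 2.22, 2.41 and 1.08 to 53.1, 51.6 and 38.9 CPM in wild-type cells and from 1.82, 1.76 and 2.12 to 14.6, 13.8 and 13.5 CPM in ΔLEO1 cells (interaction −1.77 ± 0.33, adjusted p = 1.41e-05). The genotypes overlapped in 10% serum and were apart in 0.1% serum, and 53.2% of its 58-base stretches also occur in another annotated transcript, AL135926.1. MMP24, a membrane-bound matrix metalloprotease, fell from 18.9, 17.8 and 22.8 to 2.71, 2.53 and 3.12 CPM in wild-type cells and was at 1.69, 1.47 and 1.93 and 1.5, 2.12 and 1.78 CPM in ΔLEO1 cells, below each wild-type library at both serum levels. Its interaction of 2.91 ± 0.30 had the smallest adjusted p of the lost falls named here (7.85e-19). The collagen-binding integrin ITGA11 fell from 252, 235 and 157 to 64.4, 53.7 and 38.9 CPM in wild-type cells and was at 61.3, 58 and 107 and 69.1, 63.1 and 85.6 CPM in ΔLEO1 cells (interaction 1.98), and 3 of 16 tested integrins were more positive and 1 more negative, of which the quasi-likelihood test called 1 and 0 (all tested genes, 3.06% and 1.02% by the likelihood ratio test).

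Insulin-like growth factor (IGF) binding proteins and a protease that cleaves such proteins also differed. IGFBP5 fell from 15156, 15783 and 16484 to 2232, 2319 and 3349 CPM in wild-type cells and from 2512, 2490.4 and 2938 to 1717, 1599 and 2274 CPM in ΔLEO1 cells (interaction 2.08 ± 0.26, adjusted p = 1.86e-12). The ΔLEO1 libraries in 10% serum were already in the range of the wild-type ones in 0.1% serum. IGFBP4 was at 1072, 1119 and 1522 and 1129, 1235 and 1527 CPM in wild-type cells and rose from 488, 476 and 511 to 1217, 1037 and 946 CPM in ΔLEO1 cells (interaction 1.05). PAPPA, a protease that cleaves IGFBP4, rose from 45, 46.1 and 46.6 to 133, 133 and 114 CPM in wild-type cells and was at 10.1, 10.9 and 10.8 and 9.3, 10 and 14.3 CPM in ΔLEO1 cells (interaction −1.38 ± 0.22, adjusted p = 1.25e-07). These 3 were the called members among 14 tested, as against 4.08% of all tested genes.

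Growth factor signalling and its feedback genes gave further examples. HGF, the ligand of the MET receptor, rose from 11.4, 11.2 and 7.2 to 48.8, 49.5 and 40.6 CPM in wild-type cells and was at 24.7, 25.6 and 13.5 and 27.6, 25.7 and 16.2 CPM in ΔLEO1 cells (interaction −2.10, adjusted p = 1.53e-05). DUSP4, a phosphatase that turns off ERK, rose in ΔLEO1 cells from 1.79, 1.5 and 0.629 to 16.8, 11.6 and 9.12 CPM and was at 25.7, 28.6 and 22.9 and 39.9, 40 and 40.7 CPM in wild-type cells (interaction 2.62, adjusted p = 4.28e-08). SPRY2, an inhibitor of receptor tyrosine kinase signalling, rose less in ΔLEO1 cells (−0.89). GDNF, a neurotrophic factor, rose in both genotypes and more in ΔLEO1 cells, from 0.316, 0.201 and 0.373 to 4.37, 6.32 and 4.41 CPM against 2.55, 3.85 and 2.32 to 10.1, 10.9 and 10.6 CPM (2.22). Of 40 tested members of the ERK list, 2 were more positive and 3 more negative (3.06% and 1.02% of all tested genes), with a median interaction of −0.03.

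Retinoic acid genes were called at the steps of synthesis, breakdown and reception. RDH10, which makes retinaldehyde from retinol, fell from 97.1, 92.1 and 144 to 15.6, 15.5 and 18.3 CPM in wild-type cells and was at 12, 9.77 and 14.9 and 6.72, 7.47 and 11.5 CPM in ΔLEO1 cells (interaction 2.24 ± 0.34, adjusted p = 2.7e-08). CYP26B1, described above, had −4.21 on this scale. The receptor RARA rose in both genotypes and more in ΔLEO1 cells, to 143, 138 and 143 CPM against 74.3, 74.4 and 91.7 CPM in wild-type cells (0.85). These were the 3 called members of 15 tested, as against 4.08% of all tested genes.

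Of 41 tested guidance receptors and ligands, 6 were more positive and 0 more negative by the likelihood ratio test and 4 and 0 by the quasi-likelihood test, beside 3.06% and 1.02% of all tested genes by the first. The list had a median response of 0.0036 in wild-type and 0.29 in ΔLEO1 cells. SEMA7A, a membrane-anchored semaphorin, fell from 41.5, 41.3 and 47.1 to 16.8, 16.7 and 17.3 CPM in wild-type cells and was at 28.3, 24.6 and 20.1 and 22.1, 20.7 and 25.3 CPM in ΔLEO1 cells (interaction 1.26, adjusted p = 5.7e-07). NTN4, a netrin of basement membranes, had 1.14, and the SLIT receptor ROBO2, which rose in both genotypes, had 1.13.

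The remaining called members of the lists were spread over many functions. CDKN1A, the p21 inhibitor of cell cycle kinases, rose in ΔLEO1 cells from 43.8, 46.5 and 34.5 to 80, 85.2 and 71.9 CPM and was at 217, 227 and 184 and 153, 161 and 224 CPM in wild-type cells, above the ΔLEO1 libraries at both serum levels (interaction 1.15). ZFP36, which marks cytokine mRNAs for decay, rose in wild-type cells only by the calls, from 47.7, 47.7 and 40.3 to 82.6, 82.3 and 100.04 CPM (−1.16), and so did PPP1R15A, a phosphatase subunit of the stress response (−0.73). The ubiquitin-like ligase HERC5 (−1.958), an interferon-stimulated gene, lost a rise from 1.85, 1.94 and 1.64 to 4.5, 4.14 and 5.81 CPM. The chemokine CXCL16 (0.93), the glutathione synthesis subunit GCLM (0.77) and the clock repressor BHLHE41 (1.07) had more positive responses, and the lysosome and melanocyte regulator MITF (−1.27) and the T-type calcium channel CACNA1G (−2.39) more negative ones.

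By the size rule within classes, further genes outside the lists were LYPD1 (−2.17), SLC7A14 (−3.67) and the transcriptional regulator DACH1 (−2.69), whose rises were lost or blunted, and the guanylate-binding protein GBP4 (−2.11) and LYPD6 (−1.80), which fell in ΔLEO1 cells only by the calls. LYPD6 fell from 105, 112 and 144 to 28.8, 28.4 and 44.6 CPM in ΔLEO1 cells, above the wild-type libraries at 8.22, 8.58 and 9.79 and 7.52, 6.89 and 11.6 CPM. OGFRL1 (−0.77) fell in both genotypes and more in ΔLEO1 cells. ENDOD1 (1.66) and MCC (1.94) had gained or enhanced rises, and the anchoring protein AKAP6 (1.71) and ANO3 (2.02) blunted falls. SLC7A14 lies 4850 bases from CLDN11, on the other strand, and rose from 0.365, 0.288 and 0.264 to 12.4, 8.24 and 9.63 CPM in wild-type cells and from 1, 6 and 3 reads to 7, 7 and 8 reads in ΔLEO1 cells. Without library 5 its interaction was −2.999 on the log2 scale and not called (adjusted p = 0.11). SLC7A14 passed the filter on low counts only through the wild-type libraries in 0.1% serum, where it was highest.

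Several lists had no called member on the relative scale. None of 77 cytosolic ribosomal protein genes or 66 nuclear genes of oxidative phosphorylation was called by either test, and all of their 95% intervals lay within 1 log2 unit of 0. Of the ribosomal protein genes, 51 rose in wild-type and 34 in ΔLEO1 cells beside the other genes and none fell, with a median response of 0.45 in wild-type and 0.39 in ΔLEO1 cells. Of all tested genes, 16% rose in wild-type and 16.5% in ΔLEO1 cells on this scale. None of 25 sterol synthesis genes was called, and the intervals of 21 lay within these bounds. Mitotic spindle genes had a median response of −0.64 in wild-type and −0.63 in ΔLEO1 cells and none of 44 interactions was called, but only 2 of the 44 intervals lay within 1 log2 unit, so that a difference of this size in a single gene was not detectable. Of 50 DNA replication genes 27 had such an interval and none was called. The interferon-stimulated list did have called members, with 0 more positive and 2 more negative of 37 by the likelihood ratio test. This compares with 3.06% and 1.02% of all tested genes, and the quasi-likelihood test called 0 and 1 of the 37. Their median response was 0.40 in wild-type and −0.05 in ΔLEO1 cells. YAP and TEAD targets, with none of 24 called, had medians of −0.35 and −0.06. The other subunits of the PAF1 complex among the 6 tested members, LEO1 included, were not called, and the interaction of LEO1 was −0.13 ± 0.36.

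**Figure D5:**
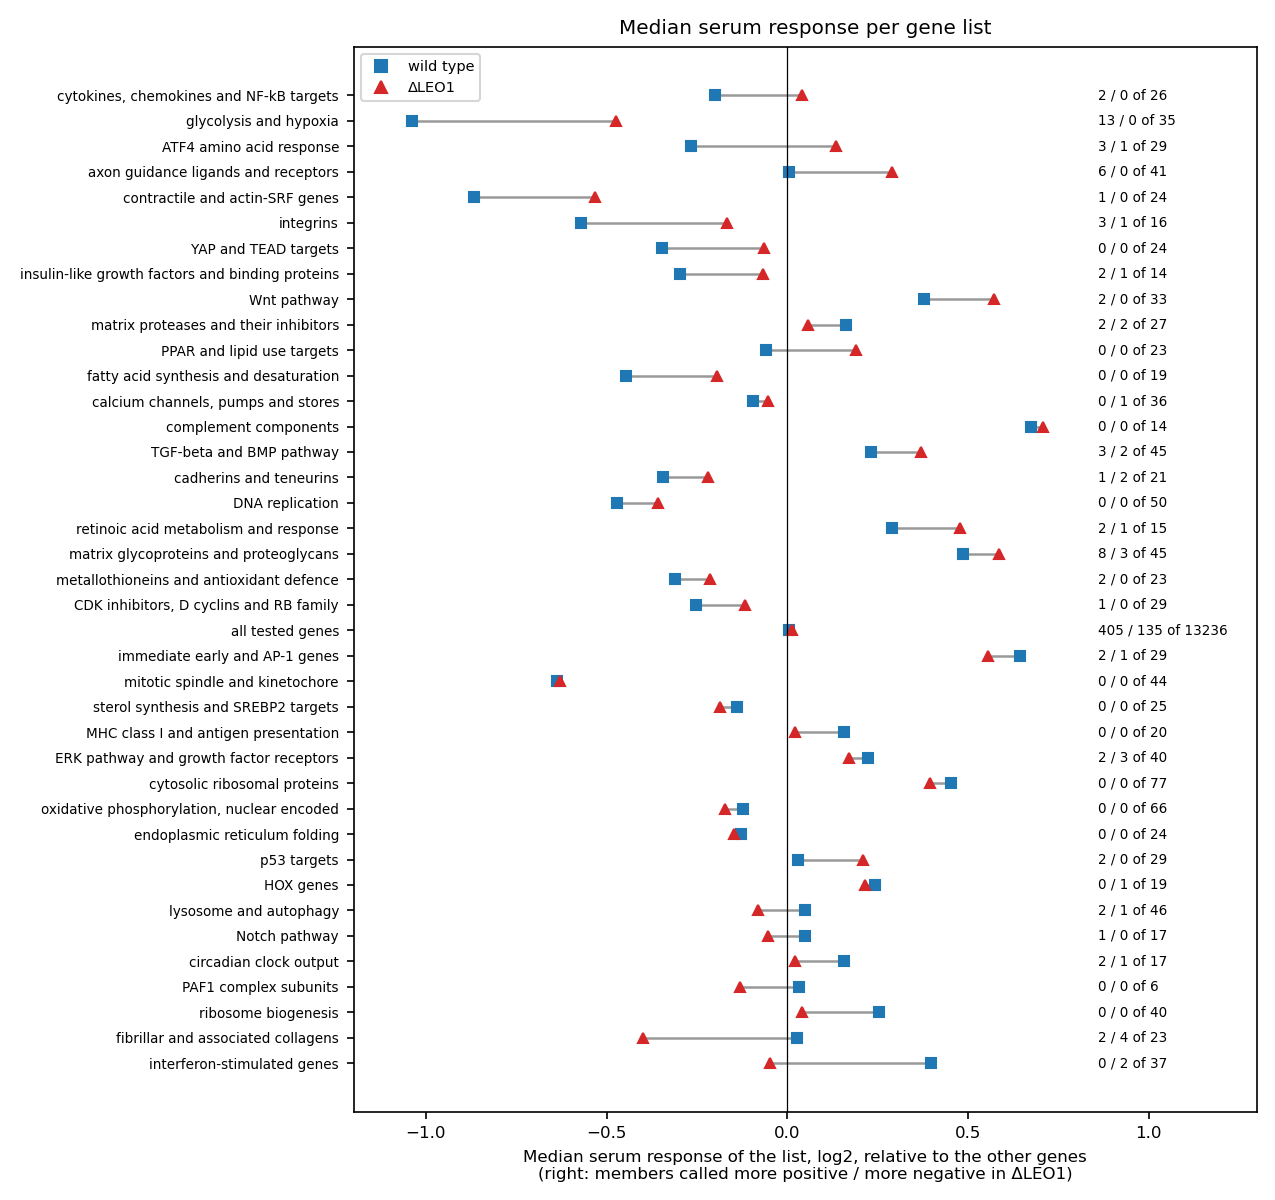
Median serum response (log2, relative scale) of the tested members of each gene list in wild-type cells (blue squares) and ΔLEO1 cells (red triangles), in order of the median interaction, with the numbers of members called more positive and more negative in ΔLEO1 cells at the right. Glycolysis and hypoxia genes have the most called members (13 of 35), and ribosomal protein and spindle genes have none.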

How the data were processed

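RNA of 12 BJ-5ta samples was sequenced in paired-end mode after poly(A) selection with a stranded kit and addition of ERCC transcripts. The authors deposited raw counts per gene and per ERCC transcript. Per the labels and the submitters' processing notes, reads were demultiplexed with bcl2fastq 2.20.0.422, aligned with STAR 2.7.10a to the human genome (GRCh38) with the ERCC sequences, and counted in exons with featureCounts 1.5.1. The strand setting of the counting and the annotation release are not given in the sources used here, so reads of a gene and of a gene on the other strand may not be separable.

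From the counts, genes above 1 CPM in at least 3 libraries were tested in edgeR 4.0.16 (R 4.3.3) with a negative binomial fit of the 4 groups and a two-sided likelihood ratio test of the interaction, with Benjamini-Hochberg adjustment over all 13236 genes and a threshold of 0.05. Library sizes were the ERCC total (ERCC scale) or the gene total (relative scale), each times its TMM factor. The quasi-likelihood test and DESeq2 1.42.0 were alternatives, beside other normalizations, filters, thresholds and sets of libraries. Scripts were tested on simulated data. Intervals of low counts are exact conditional Poisson intervals of summed counts and cover counting error only, and other intervals are 1.96 standard errors. Coordinates are from GENCODE 29 (GRCh38), and promoters from RefSeq (GRCh38.p14).

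Named genes were LEO1, up to 4 genes per class and direction with the largest interaction that both tests called on the ERCC scale (protein-coding, averaging 10 CPM or more in 1 of the groups and above 3 counts in each library of at least 1 serum level in each genotype), up to 4 per direction called on the relative scale only, and up to 6 members of a gene list. The remaining genes called on the ERCC scale, up to 4 per class and direction on the relative scale, and the list members called on the relative scale were added after their values were seen, as was the search for ACGTG. Members and gene lists were chosen with earlier results of these data known.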

Additional observations from a re-analysis of the deposited data

Results flagged for a closer look

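A test of the difference itself, the interaction term, set the genotypes apart in their response to serum in the counts and genes given here. On the ERCC scale 18 genes were more positive and 11 more negative in ΔLEO1 cells, and on the relative scale 405 were more positive and 135 more negative. The values after each gene are its interaction in log2 units, with each class taken on the scale named.

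The difference was called on the ERCC scale for the following genes. Genes with a blunted fall were CXCL8 (4.02), IL6 (3.38), SULF1 (2.55), A2M (3.41) and KRT4 (4.16). The gene with a blunted rise was TENM4 (−4.61). The gene with an enhanced fall was SCUBE3 (−2.93). The gene with an enhanced rise was OMD (3.44). The gene with a gained fall was RELN (−2.96). Genes with a gained rise were LRRC15 (3.60), COLEC12 (3.80) and SHISAL1 (3.30). Genes with a lost fall were FMO1 (3.92), FRAS1 (3.68), CPA4 (3.05), ASPN (4.24), DTX4 (3.22), MAP2K6 (2.79) and PDGFB (3.53). Genes with a lost rise were CLDN11 (−2.93), COL14A1 (−6.65), ENTPD1 (−3.40), HPSE2 (−3.13) and CST1 (−3.81). Genes with a fall reversed to a rise were CLSTN2 (5.56) and CHST15 (3.03). Genes with a rise reversed to a fall were CYP26B1 (−4.26), COL21A1 (−4.19) and FPR3 (−5.24). The class of several of these genes differed on the relative scale. By the relative-scale calls CYP26B1 and COL21A1 were lost rises, CHST15 was a gained rise and SCUBE3 a gained fall. HPSE2 and CST1 were blunted rises there, and COLEC12 and SHISAL1 enhanced rises. A2M and KRT4 were lost falls, and ASPN, DTX4 and PDGFB falls reversed to a rise.

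On the relative scale the values of further genes named in the text were as follows. Genes with a blunted fall were GCLM (0.77), HK2 (1.34), IGFBP5 (2.08), PGK1 (0.98), ANO3 (2.02), HK1 (0.64), BNIP3 (1.26), AKAP6 (1.71) and GPI (0.73). Genes with a blunted rise were DPT (−1.77), SLC7A14 (−3.67), DACH1 (−2.69), SPRY2 (−0.89) and CACNA1G (−2.39). The gene with an enhanced fall was OGFRL1 (−0.77). Genes with an enhanced rise were ROBO2 (1.13), GDNF (2.22), MCC (1.94), NDRG1 (1.22), CXCL16 (0.93) and RARA (0.85). Genes with a gained fall were GBP4 (−2.11), LYPD6 (−1.80) and MITF (−1.27). Genes with a gained rise were CDKN1A (1.15), DUSP4 (2.62), SVEP1 (1.92), ENDOD1 (1.66), PFKFB3 (1.02), MXI1 (0.79), CA12 (2.05) and IGFBP4 (1.05). Genes with a lost fall were EFEMP1 (1.31), PFKFB4 (1.35), THBS2 (1.17), RDH10 (2.24), GAPDH (0.80), MFAP5 (1.67), BHLHE41 (1.07), NTN4 (1.14), ITGA11 (1.98), SEMA7A (1.26), MMP24 (2.91) and PFKL (0.85). Genes with a lost rise were LYPD1 (−2.17), HERC5 (−1.958), HGF (−2.10), PAPPA (−1.38), BMP2 (−2.75), ZFP36 (−1.16) and PPP1R15A (−0.73). Genes with a fall reversed to a rise were EPAS1 (1.01), INHBB (2.30), PLXNB1 (0.84), GASK1B (2.82), TNFAIP8 (2.35), FZD4 (1.37), MYH10 (0.86), NOG (2.48) and CELSR1 (1.43). Genes with a rise reversed to a fall were KIF5C (−2.40), NAALAD2 (−2.69), BMP4 (−1.71) and NR1D1 (−0.96).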

How the results depend on the processing

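No paired analysis was possible because the labels number the libraries in 1 run, so that no library of a group shares its number with one of another group. Of the 29 genes called on the ERCC scale, 23 were also called by the quasi-likelihood test, 11 by DESeq2, 20 with the highest-numbered library as a covariate and 9 in each fit without 1 library, and of the 540 on the relative scale 265, 519, 540 and 267. ERCC-scale genes that were more positive numbered 8 with DESeq2 and 8 when the 2 libraries of a group other than its highest-numbered one were summed to 1, and more negative genes 1 with that sum, 7 at an adjusted p under 0.01, 7 with the covariate and 95 without the 4 highest-numbered libraries, where the median interaction was −0.67. Scaling to the genes gave 405 and 135 with TMM, and 393 and 135 with DESeq2 size factors. On the relative scale, the counts more positive and more negative were 205 and 60 by the quasi-likelihood test, 242 and 71 at an adjusted p under 0.01, 2256 and 1290 without the 4 highest-numbered libraries, 626 and 219 with the covariate and 76 and 27 with the sum. Leaving out 1 library gave 8 to 57 more positive and 5 to 69 more negative genes on the ERCC scale, and 269 to 603 and 81 to 234 on the relative scale. IL6 turned to −0.50 without the 4 highest-numbered libraries (not called, adjusted p = 0.52 by edgeR). The cause of these shifts was not tested. The spread of the ERCC share between libraries of a group limits the ERCC scale, and counts of a few reads limit genes such as TENM4, FPR3, COL21A1, GASK1B, SLC7A14, CLSTN2 and PDGFB. BMP2, CACNA1G, SLC7A14, COL21A1 and ENTPD1 passed the filter on low counts in only 9 of the 12 fits without 1 library.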
